A study of Homo sapiens with 6 samples.

Results

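TRIM proteins are a family of ubiquitin ligases named after a tripartite motif of a RING finger, 1 or more B-boxes and a coiled coil. The RING finger recruits the ubiquitin-conjugating enzyme, and a variable C-terminal domain picks the substrate, so the family is sorted into classes by that domain. Several members are induced by interferon and act in antiviral defence, either on the virus or on the sensors that detect it, while others work in transcription, at the centrosome or in muscle. Some members, such as TRIM14, TRIM29 and TRIM44, lack the RING finger.

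The family was taken as every gene whose symbol in the array's platform annotation is TRIM followed by a digit. This gave 66 members of 17687 named genes, and the readthrough symbol TRIM6-TRIM34 was counted apart. No member had more than 1 probe set. Of the 10 members listed as interferon-inducible 8 were measured: TRIM5, TRIM14, TRIM21, TRIM22, TRIM34, TRIM38, TRIM56 and TRIM69. TRIM25 and TRIM26 were not analysed here. The other 58 measured members served as the comparison.

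Expression was measured on 6 Clarion S arrays, 1 for each condition of 3 established lines of human lung cancer. Of these, PC-9 and HCC827 carry a mutant EGFR, the epidermal growth factor receptor, and were profiled as control and after 6 hours with 0.01 µM erlotinib, an inhibitor of the EGFR kinase. H322 has the wild-type receptor and was profiled as control and after 6 hours with 100 µg/ml EGF, the concentration as the labels write it. The protocol names tumour necrosis factor alpha in the culture medium without saying whether the controls had it, so its effect and that of the treatments cannot be told apart if they did not. All 8 epithelial markers, EPCAM and KRT8 among them, were above background on every array. Of 9 leukocyte markers 3 were above it on at least 1 array (CSF1R, ITGAM and NKG7), while the defining leukocyte genes PTPRC and CD3E were above it on none, with PTPRC between 4.20 and 4.99. Of 9 fibroblast and endothelial markers 2 (VWF and CDH5) were above background on at least 1 array.

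Signals are given as log2(intensity + 1), and background is the signal under which 95% of the 612 negative control probe sets of that array lay, between 6.92 and 7.47. Probe sets differ in their response, so a signal is compared between arrays for the same gene and never between genes. How few arrays there are limits precision: the drug comparison has the 2 EGFR-mutant lines as its replicates, and everything within 1 line has none.

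On all 6 arrays 20 of the 66 members (30.3%) lay above background, against 41.9% of all genes. On at least 1 array 29 members did (43.9%), against 58.6% of all genes, and the remaining 37 stayed between 2.95 and 6.64, below background on every array. The members above background on 1 to 5 arrays numbered 9. By array the count ran from 22 in PC-9 control (33.3%, all genes 49.8%) to 28 in HCC827 with erlotinib (42.4%, all genes 52.4%). The latter array had the lowest background, 6.92, and the highest share of all genes as well. With the 99th percentile of the negative controls as background, the counts ran from 5 to 14.

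**Figure D1:**
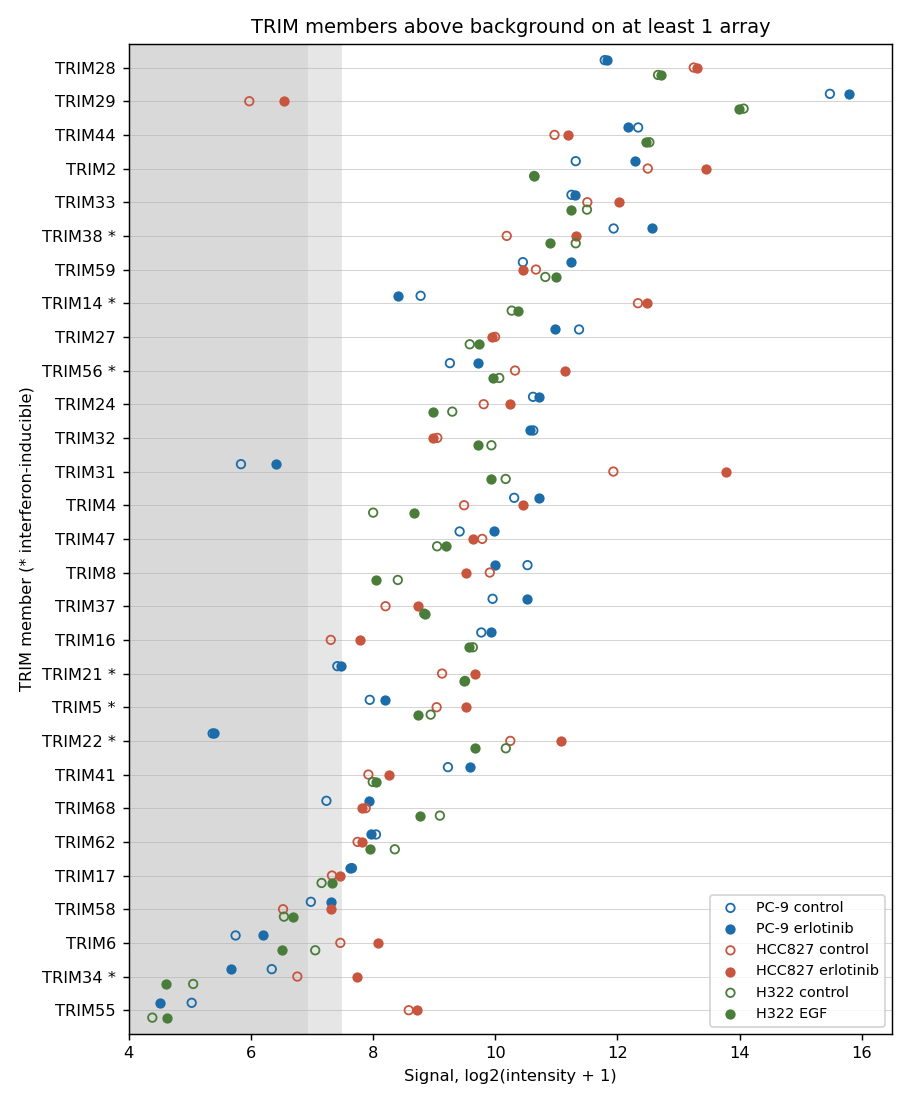
Signal of the 29 TRIM members above background on at least 1 array; the x axis is log2(intensity + 1), each point is 1 array, open circles are controls and filled circles treated cells. The grey band reaches up to the background level of the arrays (6.92 to 7.47), members are ordered by mean signal, which does not rank genes by transcript number, and TRIM29, TRIM31, TRIM22 and TRIM55 each lie in the band in at least 1 line and above it in another.

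The PHD-bromodomain members act on chromatin. TRIM24, TRIM28 and TRIM33 lay above background on all 6 arrays, and TRIM66 on none. TRIM28, the corepressor that KRAB zinc finger proteins recruit, had 11.79 and 11.82 in PC-9, 13.25 and 13.31 in HCC827 and 12.66 and 12.71 in H322, control before treated. Its treated and control arrays lay close together in every line, and HCC827 was the highest line. TRIM33, which works in SMAD signalling, kept within 11.24 to 12.02 over all arrays.

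Of the NHL-repeat members TRIM2 and TRIM32 lay above background on all 6 arrays, and TRIM3 and TRIM71 on none. TRIM32, a ligase mutated in a limb-girdle muscular dystrophy, had 10.62 and 10.57 in PC-9, 9.05 and 8.98 in HCC827, and 9.94 and 9.72 in H322. Of the muscle ligases of the MuRF class, TRIM54 and TRIM63 were below background on all arrays. TRIM55, the remaining one, had 8.58 and 8.72 in HCC827 and at most 5.03 in the other lines, so it was detected in 1 line only. Of the class with a COS box and fibronectin domain, TRIM9, TRIM36, TRIM46 and TRIM67 were below background on every array. Their relatives MID1 and MID2, microtubule-bound ligases that carry the TRIM architecture under another name, were above it on 6 and 4 arrays.

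Among members with no known C-terminal domain, TRIM8 and TRIM56 were above background on all 6 arrays and TRIM31 on 4, while TRIM40, TRIM52, TRIM61, TRIM73 and TRIM74 were not above it on any. The membrane-anchored TRIM59 and the centrosome and peroxisome ligase TRIM37 lay above background on all 6. Of the members without a RING finger, TRIM14, TRIM16 and TRIM44 were above it on all 6 arrays, TRIM29 on 4 and TRIM66 on none. TRIM44 had 12.34 and 12.17 in PC-9, 10.97 and 11.19 in HCC827 and 12.52 and 12.48 in H322, lowest in HCC827. The 12 members of close copies (the TRIM43, TRIM49 and TRIM64 groups, TRIM73 and TRIM74), whose probes may not tell one copy from another, all lay below background, between 2.95 and 6.64.

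The first comparison asks how far the 3 untreated lines differ in this family. Counting genes whose brighter signal lay above background, 18 of 27 members (66.7%) differed at least 2-fold between the HCC827 and PC-9 controls, against 41.2% of all genes. Between H322 and PC-9 the count was 12 of 25 members (48.0%, all genes 43.6%), and between H322 and HCC827 11 of 27 (40.7%, all genes 41.4%). The shares for H322 lie near those of all genes. With the 99th percentile as background the counts were 11, 5 and 7. TRIM6, TRIM22, TRIM29, TRIM31 and TRIM55 had 1 of the HCC827 and PC-9 controls below background. They entered that count through the line where they were high, so they add no weight to it. For TRIM6 the bound was only 1.09-fold, and with dim signals raised to background the count was 17. The counts for H322 hold such members too, and all genes were filtered the same way. Each line has 1 control array, so these differences have no replicate check and no test, and line and array cannot be told apart. In bulk RNA, fewer cells with a transcript and less of it per cell cannot be told apart either.

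TRIM29 stood furthest apart. This RING-less member, known from squamous epithelium and from binding DNA damage proteins, had 15.48 and 15.79 in PC-9, 14.06 and 13.99 in H322 and 5.98 and 6.54 in HCC827. Both HCC827 arrays were below background, so against HCC827 the control signal of PC-9 was higher by 295-fold or more and that of H322 by 111-fold or more. TRIM16, another RING-less member, had the same order of lines, with 9.77 and 9.94 in PC-9, 9.63 and 9.56 in H322 and 7.31 and 7.79 in HCC827. Its HCC827 control lay barely above the background of 7.27, and PC-9 was 5.51-fold higher.

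TRIM31, TRIM22 and TRIM14 went the other way and were lowest in PC-9. TRIM31, a ligase of gut epithelium that acts on the adaptor MAVS, had 11.93 and 13.77 in HCC827, 10.17 and 9.93 in H322 and 5.84 and 6.41 in PC-9. Its control signal was at least 24.1-fold higher in HCC827 than in PC-9, where neither array was above background, and 3.39-fold higher in HCC827 than in H322. TRIM22, an interferon-induced restriction factor, had 10.25 and 11.08 in HCC827, 10.17 and 9.68 in H322 and 5.38 and 5.40 in PC-9. HCC827 and H322 controls lay within 1.05-fold of each other, and both were at least 7.12-fold above PC-9. TRIM14, an adaptor in the MAVS pathway, had 8.78 and 8.41 in PC-9, 12.34 and 12.49 in HCC827 and 10.27 and 10.38 in H322. Here the lines separated fully, with HCC827 11.8-fold and H322 2.81-fold above PC-9.

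Most interferon-inducible members had their lowest control signal in PC-9. Of the 8 measured, 6 had a mean signal over the 6 arrays above the mean background of 7.25. All 6 differed at least 2-fold between HCC827 and PC-9 controls. Among genes whose brighter control signal lay above background, 12 of 21 other members and 41.2% of all genes did so. Of the 6, 5 were higher in HCC827 than in PC-9 (all genes 48.6%) and 5 were higher in H322 than in PC-9 (all genes 52.6%). TRIM22, below background in PC-9, reached that mean through the other lines and could only be lower in PC-9, so these counts carry no weight for it. TRIM21, the cytosolic antibody receptor, had 7.42 and 7.47 in PC-9, 9.13 and 9.67 in HCC827 and 9.51 and 9.49 in H322. TRIM5, which binds retroviral capsids, had 7.95 and 8.20 in PC-9, 9.04 and 9.52 in HCC827 and 8.94 and 8.73 in H322. TRIM38 was the exception, with 11.94 and 12.56 in PC-9, 10.19 and 11.31 in HCC827 and 11.32 and 10.90 in H322. PC-9 was therefore the highest control line for TRIM38 and the lowest for TRIM5, TRIM14, TRIM21, TRIM22 and TRIM56.

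Promoter sequences from RefSeq (GRCh38.p14) were matched by symbol for 53 of the 66 members, and 250 bases before each start were searched on both strands. The interferon-stimulated response element was searched as GAAA, any 2 bases, then GAAA, which on the other strand reads TTTC, any 2 bases, then TTTC. It was found for 4 of the 7 interferon-inducible members with an entry and for 4 of the 46 others. Counted by start, since a member can have several, it was in 8 of the members' 71 windows (11.3%) and in 3.02% of all 35116 promoters. A match describes these letters only. The 4 stretches are shown because they are the windows of interferon-inducible members that hold the match. Each is the 100 bases before the start on the gene's own strand, with the match in capitals. They come from chr11:5685075-5685174 (minus strand) for TRIM5, chr9:98119223-98119322 (minus) for TRIM14, chr11:5624901-5625000 (plus) for TRIM34 and chr15:44736428-44736527 (plus) for TRIM69.
TRIM5: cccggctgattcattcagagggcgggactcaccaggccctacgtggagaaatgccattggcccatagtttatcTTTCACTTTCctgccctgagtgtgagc
TRIM14: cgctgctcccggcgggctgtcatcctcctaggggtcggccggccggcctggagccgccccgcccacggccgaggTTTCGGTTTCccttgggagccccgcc
TRIM34: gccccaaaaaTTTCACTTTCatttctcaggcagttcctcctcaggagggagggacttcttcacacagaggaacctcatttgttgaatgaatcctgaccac
TRIM69: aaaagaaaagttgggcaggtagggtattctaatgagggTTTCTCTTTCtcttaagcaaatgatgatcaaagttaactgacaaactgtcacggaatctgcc

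The match begins 27 bases before the start in TRIM5, 26 in TRIM14, 90 in TRIM34 and 62 in TRIM69. TRIM69 was below background on all arrays and TRIM34 on 5 of 6. The windows of TRIM21, TRIM38 and TRIM56 hold no such letters. That of TRIM5 also holds the AP-1 motif described with TRIM2, 94 bases before the start and apart from this match.

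Of 23 measured interferon pathway genes outside the family, 14 were above background in the PC-9 control, 20 in the HCC827 control and 17 in the H322 control, against 49.8%, 49.7% and 48.8% of all genes. ISG15, the ubiquitin-like modifier induced by interferon, had 6.43 in PC-9, 12.82 in HCC827 and 7.22 in H322 controls, and only HCC827 was above background. IFIT1, which binds viral RNA, had 5.59, 15.02 and 9.72 in the same order, and the GTPase gene MX1 had 8.71, 16.32 and 4.77, so that H322 was its lowest line. These 3 were highest in HCC827, which does not hold for the whole list. Of its 20 genes with a mean signal above background 7 were higher in the H322 than in the HCC827 control, against 4801 of 9017 genes. IRF1, with 14.30 in H322 and 11.39 in HCC827, was among them. The part of these genes in the differences between the lines was not tested.

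**Figure D2:**
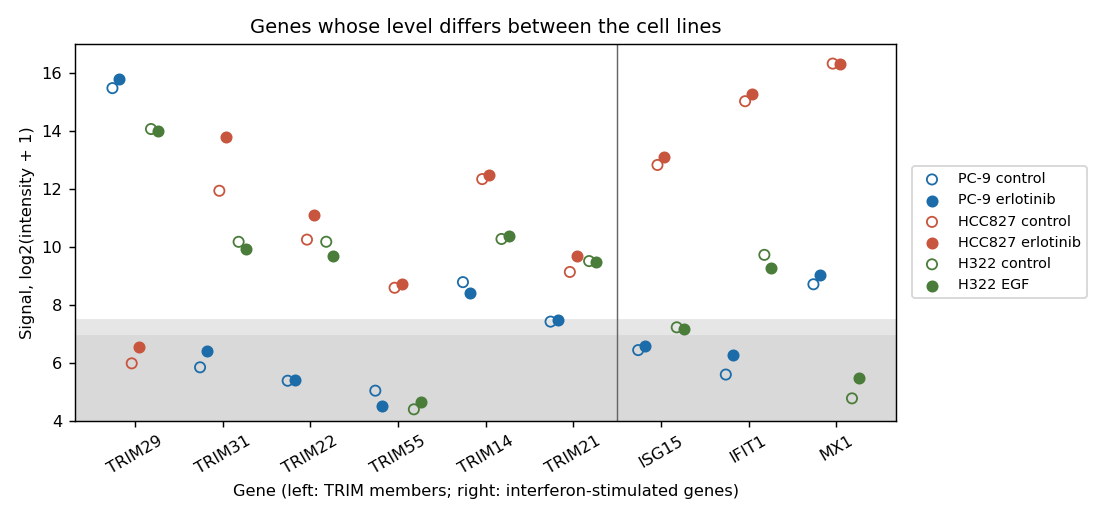
Signal of 6 TRIM members and 3 interferon-stimulated genes on each of the 6 arrays; the y axis is log2(intensity + 1), open circles are controls, filled circles treated cells, and the grey band is background (6.92 to 7.47). TRIM29 lies in the band in HCC827, TRIM31 and TRIM22 in PC-9, and TRIM55 in PC-9 and H322, while ISG15 lies above it in HCC827.

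The next comparison asks what EGFR inhibition did to the family in the EGFR-mutant lines. TRIM2 rose, and it was the 1 member of 66 (1.52%) to pass, against 0.565% of all genes that rose. TRIM2 is a ligase of the NHL class best known from neurons, where it acts on neurofilament light chain. It had 11.32 on the PC-9 control array and 12.28 with erlotinib, and 12.50 and 13.45 in HCC827. Each treated array lay above the control of its own line, by 0.96 in PC-9 and 0.95 in HCC827, while the groups overlapped across lines, since the HCC827 control lay above treated PC-9. The mean log2 increase was 0.96 ± 0.14 (moderated SE from limma over 2 lines), or 1.94-fold, with a limma adjusted p of 0.0316 over all genes. In H322 TRIM2 had 10.64 on both arrays.

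TRIM2, the member that rose, has 6 starts in the table, and 3 of their windows hold a motif, 1 each. The FOXO core GTAAACA, read as TGTTTAC on the other strand, was found in TRIM2 as the 1 member of 53, or 1 of 71 windows (1.41%), and in 2.98% of all promoters. The AP-1 motif TGANTCA was found for 10 members, in 10 of 71 windows (14.1%), and in 6.57% of all promoters, while the interferon motif stood at yet another start. The motifs do not overlap. The stretches run from chr4:153222313-153222412, chr4:153257248-153257347 and chr4:153151913-153152012, all on the plus strand, and which start these cells use was not measured by this array. They are shown because TRIM2 carries the drug result.
TRIM2 with the FOXO core: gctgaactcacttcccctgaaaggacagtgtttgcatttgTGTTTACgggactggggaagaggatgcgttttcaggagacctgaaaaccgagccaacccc
TRIM2 with the AP-1 motif: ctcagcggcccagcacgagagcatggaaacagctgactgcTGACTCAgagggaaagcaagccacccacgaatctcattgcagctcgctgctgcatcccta
TRIM2 with the interferon motif: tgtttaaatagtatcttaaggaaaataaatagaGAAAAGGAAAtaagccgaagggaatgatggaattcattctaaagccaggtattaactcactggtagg

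No member fell past the threshold in limma, against 0.916% of all genes. At an unadjusted p under 0.05, 9 members passed (7 higher, and TRIM8 and the dim TRIM36 lower), which is 13.6% of the family and 14.4% of all genes. The call of TRIM2 rests on a model with 1 residual degree of freedom that borrows the spread of other genes: its limma adjusted p was 0.173 without a trend of spread on level, 0.0524 when dim genes were left out and 1 with no block for the cell line, and over the 8 alternatives it ran from 1.94e-06 to 1. The residual spread is the difference between the responses of these 2 lines, and spread between cultures of the same line was not measured. The 1.94e-06 came with dim signals raised to background. In that setting the dim genes of an array share 1 value and limma's prior degrees of freedom were infinite, so its p-values treat the spread as known.

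TRIM38 came next among members above background on all 4 arrays. TRIM38 is an interferon-inducible ligase that restrains Toll-like receptor and tumour necrosis factor signalling. Its signal was higher with erlotinib by 0.63 in PC-9 and 1.13 in HCC827. The mean difference was 0.88 ± 0.19 on the log2 scale, with a limma adjusted p of 0.0705, which did not pass. It passed after quantile normalization (limma adjusted p = 0.0041), with medians centred (0.0275) and with dim signals lifted to background (0.000213, with infinite prior degrees of freedom). Without a trend of spread on level (limma adjusted p = 0.229) or with dim genes left out (0.0849) it did not pass, and the highest of its 8 alternatives was 1. TRIM2 and TRIM38 were the 2 of 25 members with a mean signal above background (8.0%) that were at least 1.5-fold higher in both lines, against 3.75% of all genes at that level. None of the 25 was 1.5-fold lower in both lines, against 4.04% of all genes.

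TRIM4, TRIM56 and TRIM37 were also higher in both lines without passing. TRIM4, a ligase of the RNA sensor RIG-I, went from 10.31 to 10.72 in PC-9 and from 9.49 to 10.45 in HCC827. TRIM56, an interferon-inducible member tied to cytosolic nucleic acid sensing, went from 9.26 to 9.72 and from 10.32 to 11.15. TRIM37 went from 9.96 to 10.53 and from 8.20 to 8.74. The steps of TRIM37 were alike in the lines, while those of TRIM4 and TRIM56 were larger in HCC827. Mean log2 differences were 0.69 ± 0.21, 0.64 ± 0.20 and 0.55 ± 0.21, with limma adjusted p of 0.192, 0.197 and 0.29.

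TRIM31 had the largest single-line step of the family. It went from 11.93 to 13.77 in HCC827, a 3.58-fold higher signal, whereas neither PC-9 array was above background. Its mean log2 difference of 1.20 ± 0.31 therefore rests on dim signals in PC-9, and it did not pass (limma adjusted p = 0.124). With medians centred its limma adjusted p was 0.0478, with quantile normalization 0.00861 and with dim signals lifted to background 0.00129, the lowest of its 8 alternatives, whose highest was 1. The 0.00129 comes from the setting with infinite prior degrees of freedom. Without a trend of spread on level the limma adjusted p was 0.262, and with dim genes left out 0.132.

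Among members above background on all 4 arrays, TRIM8 had the lowest mean difference. TRIM8, which promotes NF-kappaB activation by tumour necrosis factor, went from 10.53 to 9.99 in PC-9 and from 9.91 to 9.53 in HCC827. Its mean log2 difference was -0.46 ± 0.20 (limma adjusted p = 0.344). TRIM27, a ligase first found as a fusion partner of RET, had -0.39 in PC-9 and -0.04 in HCC827. TRIM32 had -0.05 and -0.08. These were the 3 of 25 members (12.0%) lower in both lines, against 30.3% of all genes at that level. A larger share, 15 of 25 (60.0%), was higher in both lines, against 36.9% of all genes, and 7 (28.0%) went opposite ways, against 32.8%. The 15 include TRIM22, TRIM29 and TRIM31, each with both arrays of 1 line below background. Of the 25, 6 were at least 1.5-fold higher in HCC827 (24.0%, all genes 13.7%) and 4 in PC-9 (16%, all genes 7.13%). More such steps in HCC827 were thus seen among all genes too. The 4 in PC-9 include TRIM68, whose control there (7.24) was below the background of 7.34. At least 1.5-fold lower signals were seen for 0 members in HCC827 (all genes 9.65%) and 0 in PC-9 (all genes 8.78%).

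In PC-9 the median log2 difference of the 6 interferon-inducible members was 0.16, next to 0.16 for the 19 others and 0.00 for all genes at that level. These PC-9 medians depend on dim members such as TRIM22: over members above background on both PC-9 arrays they were 0.257 and 0.105, and with dim signals raised to background 0.0542 and 0.0431. In HCC827 the medians were 0.68, 0.22 and 0.07, and that of the others was 0.133 with dim signals raised. Raising gives a gene dim on both HCC827 arrays the step between their backgrounds, from 7.27 to 6.92. In HCC827 all 6 were higher with erlotinib (all genes 56.3%), from 0.16 for TRIM14 to 1.13 for TRIM38. In PC-9 5 of 6 were (all genes 50.4%), TRIM22 among them on dim signals, from -0.37 for TRIM14 to 0.63 for TRIM38. TRIM22 had 0.83 in HCC827 and TRIM21 had 0.05 in PC-9 and 0.54 in HCC827. TRIM5 had 0.26 and 0.48. TRIM38 and TRIM56 had the largest mean differences of the group. Whether the interferon motif has a part in these differences was not tested. In limma 0 of the 8 measured interferon-inducible members passed, and 2, TRIM38 and TRIM56, had an unadjusted p under 0.05. Neither the difference between the lines nor that between the member groups was tested, since each line has 1 array per condition. TRIM34 was above background only in HCC827 with erlotinib, at 7.74, and TRIM69 on no array.

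**Figure D3:**
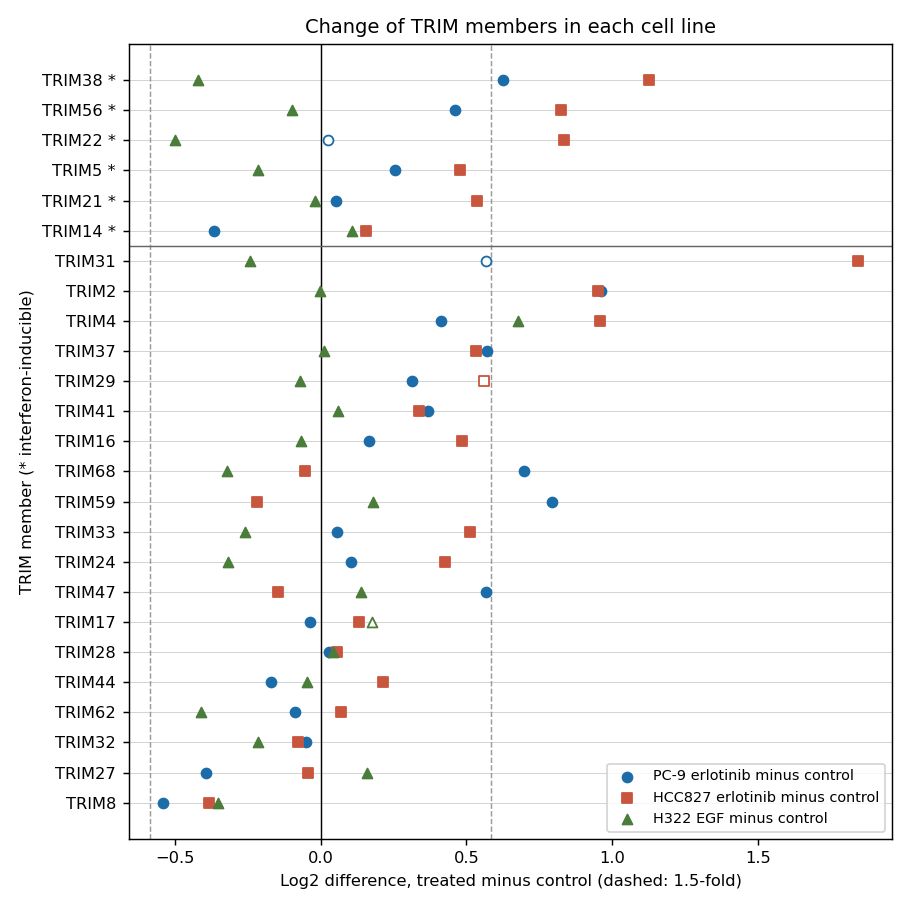
Log2 difference, treated minus control, of the 25 TRIM members with a mean signal above background in PC-9 (erlotinib), HCC827 (erlotinib) and H322 (EGF); each symbol is 1 pair of arrays, dashed lines mark 1.5-fold, and open symbols have no fold because the signals were too dim. Interferon-inducible members stand above the horizontal line; TRIM2 has 0.96 and 0.95 with erlotinib, and TRIM31 reaches 1.84 in HCC827.

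Some family members go by other names. PML, the scaffold of nuclear bodies and also interferon-inducible, had 13.47 and 13.83 in PC-9, 13.08 and 13.63 in HCC827 and 12.98 and 12.45 in H322. It was higher in both erlotinib arrays and lower with EGF, and did not pass (0.45 ± 0.13, limma adjusted p = 0.168). MID1 went from 12.11 to 12.74 in PC-9 and from 9.64 to 10.43 in HCC827, a mean difference of 0.70 ± 0.17 that did not pass (limma adjusted p = 0.103). MEFV was below background on every array.

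Of 23 measured interferon pathway genes 1 rose past the threshold with erlotinib, against 0.565% of all genes. It was the guanylate-binding protein gene GBP2, at 1.42 ± 0.17 (limma adjusted p = 0.0175), and 22 did not pass. At an unadjusted p under 0.05 in limma 11 of the 23 passed, against 14.4% of all genes, OAS2 among them on dim signals in PC-9. GBP2 did not pass without a trend of spread on level (limma adjusted p = 0.138) or with no block for the cell line (1). Its 8 alternatives ran from 2.41e-14, with dim signals raised and infinite prior degrees of freedom, to 1. The transcription factor genes IRF1 and IRF9 had 0.88 ± 0.17 and 0.90 ± 0.21, and IFIT2 had 1.15 ± 0.24 (limma adjusted p = 0.053, 0.0897 and 0.0655). For IFIT2 the PC-9 control, at 7.29, lay below the background of 7.34. IRF1, IRF9 and IFIT2 passed with medians centred (limma adjusted p = 0.0234, 0.0443 and 0.0216). They did not pass without a trend of spread on level (limma adjusted p = 0.182, 0.261 and 0.189). Nor did they when dim genes were left out (limma adjusted p = 0.0652, 0.105 and 0.0819). Of 13 measured partners of TRIM ligases (conjugating enzymes, sensors and adaptors) 0 passed in limma, against 0.565% of all genes that rose and 0.916% that fell. At an unadjusted p under 0.05 in limma 3 of the 13 passed, against 14.4% of all genes. UBE2N, which builds lysine-63 chains with several TRIM ligases, was the lowest and just missed the threshold. It went from 11.74 to 10.50 in PC-9 and from 12.34 to 11.59 in HCC827, a mean difference of -0.998 ± 0.184 (limma adjusted p = 0.0503). With medians centred UBE2N passed (limma adjusted p = 0.0111). Without a trend of spread on level (limma adjusted p = 0.184) or with dim genes left out (0.0678) it did not. SETDB1, the histone methyltransferase that TRIM28 recruits, had 0.57 ± 0.20 and SMAD4, a substrate of TRIM33, had 0.54 ± 0.15 (limma adjusted p = 0.245 and 0.16). TRAF6, a substrate of TRIM38, had 0.32 ± 0.20 (limma adjusted p = 0.539).

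The last comparison asks what EGF did in H322 cells, with 1 array per condition and no test. Of 25 members whose brighter signal lay above background 1 differed at least 1.5-fold (4.0%), against 3.90% of all genes, a share near that of all genes, and 0 did with the 99th percentile as background. That member was TRIM4, which went from 8.0 to 8.68, a 1.60-fold higher signal, and so was higher with EGF as well as with erlotinib. The next largest steps were downward. TRIM22 went from 10.17 to 9.68, TRIM38 from 11.32 to 10.90, TRIM62 from 8.36 to 7.95 and TRIM8 from 8.41 to 8.05. TRIM8 was thus lower in all 3 treated cultures, by 0.54, 0.38 and 0.35 on the log2 scale.

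Of the 25 members with a mean signal above background 16 (64.0%) were lower, against 48.7% of all genes, and 5 of the 6 interferon-inducible members were among them. Their median log2 difference was -0.16, that of the other 19 members -0.05 (-0.103 with dim signals raised) and that of all genes 0.01. Raised dim signals carry the step between the backgrounds of the H322 arrays, from 7.47 to 7.13. TRIM14, at 0.11, was the 1 interferon-inducible member with a higher signal. Members higher in both lines with erlotinib and lower with EGF numbered 11 of 25 (44.0%), against 23.2% of all genes. They were TRIM2, TRIM5, TRIM16, TRIM21, TRIM22, TRIM24, TRIM29, TRIM31, TRIM33, TRIM38 and TRIM56, and TRIM2 and TRIM21 had differences with EGF of -0.00 and -0.02. TRIM22, TRIM29 and TRIM31 count as higher in 1 line on dim signals.

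Some members share a position. On chromosome 11 the protein-coding genes TRIM5, TRIM6, TRIM34 and TRIM22 follow each other, with the readthrough TRIM6-TRIM34, when RefSeq's genes are sorted by lowest coordinate. TRIM5 is on the minus strand, and its start next to chr11:5685075 lies beyond that of TRIM34 next to chr11:5625000. These neighbours did not have 1 pattern across the lines. TRIM5 was above background on all 6 arrays and TRIM22 on the 4 of HCC827 and H322. TRIM6 had 7.47 and 8.09 in HCC827 and at most 7.05 elsewhere, so it was above background only there. TRIM34 had 6.76 and 7.74 in HCC827 and at most 6.34 elsewhere, and the readthrough had 7.27 and 7.24 in HCC827 and at most 5.52 elsewhere. TRIM5 spans TRIM6 and TRIM34 in the annotation and the readthrough shares their exons, so these signals are uncertain.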

How the data were processed

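Total RNA from each line and condition was hybridised to Clarion S arrays. The values are linear probe set intensities deposited by the authors, for which the submitters' processing notes name Affymetrix Expression Console. How background was corrected, probes summarised and arrays scaled is not stated by any label or header. Of 24351 probe sets 17709 had 1 gene symbol in the platform annotation, and the brightest probe set per symbol left 17687 genes. From the deposited intensity log2(value + 1) was computed. A gene below background on 1 array of a pair has a bound ("at least"), and below it on both no fold.

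Erlotinib was tested with limma 3.58.1 in R 4.3.3 (lmFit, eBayes with trend, two-sided, Benjamini-Hochberg over all genes at 0.05) on the 4 EGFR-mutant arrays, with the cell line as a block, since same-numbered arrays share a line. The fit has 1 residual degree of freedom and 6.58 prior ones. It was tested on simulated data. Counts over a list use members whose mean signal over the 6 arrays lies above the mean background. Members, lists and rules were chosen with earlier results of these data known. Named were the interferon-inducible members, members past the threshold, the 5 highest and 5 lowest with erlotinib, the 5 largest EGF changes, the 5 highest signals, the 5 largest control differences and up to 4 per structural class, and of the other lists those past the threshold and the 4 largest. TRIM49D1 and TRIM49D2, which the fixed spelling rule missed, were counted as members. TRIM6, TRIM17, TRIM36, TRIM47, TRIM68, MID2, MEFV, ISG15, IFIT1 and MX1 were named outside this rule, after their values were seen. Alternatives were the offset, filter, scaling, block, trend, background percentile and probe set rule.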

Additional observations from a re-analysis of the deposited data

Results flagged for a closer look

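With erlotinib 7 of 25 members with a mean signal above background (28.0%) moved in opposite directions in PC-9 and HCC827. For all genes it was 32.8%, so the share is near that of all genes and does not set the family apart. Of these 6 were above background on all 4 arrays. The remaining member, TRIM68, had 0.70 in PC-9, where its control was below background, and -0.05 in HCC827. The difference between the lines was not tested, since each has 1 pair of arrays. TRIM59 had 0.79 in PC-9 and -0.22 in HCC827, a difference of 1.009 on the log2 scale. TRIM47 had 0.57 and -0.14, a difference of 0.710. TRIM14 had -0.37 and 0.16, a difference of -0.523. TRIM44 had -0.17 and 0.22, a difference of -0.386. TRIM17 had -0.04 and 0.13, a difference of -0.166. TRIM62 had -0.09 and 0.07, a difference of -0.159. The steps of TRIM17 and TRIM62 were each smaller than the moderated SE of their mean difference, 0.26 and 0.25.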

How the results depend on the processing

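The count of members past the threshold with erlotinib was 1. It was 4 with dim signals raised to background (TRIM2, TRIM4, TRIM31 and TRIM38), in a fit with infinite prior degrees of freedom. It was 3 with medians centred and 3 after quantile normalization (TRIM2, TRIM31 and TRIM38). It was 0 in limma over genes above background on at least 1 array, 0 without a trend of spread on level and 0 with no replicate block, that is, without pairing by cell line; over all genes the unpaired fit called 0, with 186 at an unadjusted p under 0.05. Leaving out a line leaves 1 pair and no residual degrees of freedom, hence no test; TRIM31 then had 0.57 or 1.84. The sign turned for TRIM29 (-0.0178) and TRIM55 (0.0742) with dim signals raised and for TRIM44 (-0.00527) with medians centred. With dim signals raised, a gene dim on both arrays of a line takes the step between their backgrounds. That step runs from 7.34 to 7.35 in PC-9, from 7.27 to 6.92 in HCC827 and from 7.47 to 7.13 in H322. It is the value given to TRIM29 in HCC827 and to TRIM55 in PC-9, and the medians with dim signals raised hold such members too. The median of the members not interferon-inducible moved in PC-9 to 0.0431 with dim signals raised and 0.0564 at the 99th percentile of the negative controls, in HCC827 to 0.13 with dim signals raised, 0.15 with medians centred and 0.18 after quantile normalization, and in H322 to -0.10 with dim signals raised and -0.000695 at the 99th percentile. Over members above background on both arrays of the line, a choice made after seeing the data, it was 0.10 in PC-9 and 0.18 in HCC827. The median of the interferon-inducible members in PC-9, 0.155, was 0.257 under that choice and 0.0542 with dim signals raised. With background at the 99th percentile, 12 and 12 members lay above it in PC-9, 14 and 13 in HCC827 and 5 and 13 in H322 (control, then treated). At that background 11 members differed 2-fold between HCC827 and PC-9 controls, 5 between H322 and PC-9 and 7 between H322 and HCC827, and 0 differed 1.5-fold with EGF. Apart from these steps between backgrounds, causes were not tested. Which dim members count as detected is thus limited by the background chosen.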
